A study of Mus musculus with 17 samples.

Results

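Interferon-induced genes are described here across cultures of immunopanned mouse astrocytes. The set holds 9 genes, *Ifit1*, *Ifit3*, *Ifit3b*, *Isg15*, *Bst2*, *Ifitm3*, *Stat2*, *Irf7* and *Irf9*, and all 9 were found by their symbols among the 56691 gene rows of the count table. The members were chosen by name with levels and group differences of these same 17 libraries already known, no contrast or threshold is stated, and every difference between groups given for a member is a description and supports no statement about the set.

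Bulk RNA-seq was done on astrocytes of C57BL/6 mice at postnatal day 2, taken from whole brain without olfactory bulbs, cerebellum or meninges. Cells passed over dishes with antibodies against CD45 and O4, which remove microglia, macrophages and oligodendrocyte precursors, and were then held on a dish with an antibody against HepaCAM. The 17 libraries came from 5 groups grown in one serum-free medium with heparin-binding EGF-like growth factor, and all groups carry the same genotype. The comparisons ask how a Sonic hedgehog agonist and 2 fibroblast growth factors act on astrocyte gene expression. SAG, which activates Smoothened, was given to 3 cultures at 500 ng/ml for 3 days from day 3 in vitro, and 3 cultures received its solvent DMSO on the same schedule. FGF2 was given to 4 cultures and FGF10 to 3 cultures at 50 ng/ml for 7 days from day 2 in vitro, and 4 cultures received the solvent PBS. The methods count 3 FGF2 replicates and the labels 4, and all 4 were used. PBS and DMSO cultures differ in solvent, in start and in length of treatment together, which cannot be told apart.

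Interferons are secreted proteins that cells make when sensors find foreign or misplaced nucleic acid. Type I interferons bind a receptor of IFNAR1 and IFNAR2, whose kinases JAK1 and TYK2 phosphorylate STAT2. It joins IRF9 in a complex that binds interferon-stimulated response elements in promoters and switches on genes whose products block viruses. In the brain astrocytes both make type I interferon and respond to it, and a low tonic signal keeps some of the genes on without infection.

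Reads came from the 3′ ends of transcripts, and levels are given in CPM, counts scaled to library size, after TMM normalization over the 17 libraries. In such libraries longer transcripts do not give more reads, so CPM of different genes were set side by side without division by length. A gene is called over the floor in a library where it has more than 3 counts, and 3 counts equalled 0.0447 to 0.171 CPM. Total counts ran from 17481727 in FGF2 replicate 2 to 68342287 in SAG replicate 2. Astrocyte markers summed to 4960 to 7608 CPM per library over 14 genes, of which 13 were over the floor in all 17. Of 18 markers of microglia or macrophages, 6 were never over the floor, *Aif1*, *C1qb*, *Csf1r* and *Trem2* had no count in any library, and the summed level was 2.64 to 81.4 CPM. Oligodendrocyte lineage genes summed to 1539 to 2644 CPM over 10 genes, most of it from *Olig2* and *Cnp* with means of 1372 and 330 CPM, while *Mog* was over the floor in 1 library and *Mag* in 8. In bulk samples fewer cells of a type and less RNA per cell cannot be told apart.

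The members split by level. *Ifitm3*, *Irf9* and *Stat2* were over the floor in all 17 libraries, at mean levels of 98.3, 24.4 and 16.1 CPM. The other 6 had mean levels of 1.47 to 2.11 CPM and were absent from many libraries. *Isg15* had at most 3 counts in 12 of 17 libraries, *Ifit1*, *Ifit3b* and *Irf7* in 11, *Ifit3* in 10 and *Bst2* in 7. Other genes of these levels were absent from similar numbers of libraries: the 1493 genes with a mean of 1 to 2 CPM had a median of 12 libraries at 3 counts or fewer (quartiles 10 and 13), and the 1983 genes at 2 to 5 CPM a median of 7 (quartiles 6 and 9). *Ifit1* fell in the range of 2 to 5 CPM, where 11.1% of genes were missing from as many libraries. Its mean of 2.10 CPM lay near the lower edge of that range, so this share depends on where the edge was set. Its 11 libraries lay between the quartiles given for 1 to 2 CPM. *Isg15*, at 1.99 CPM, was missing from 12 libraries, and in its own range 54.9% of genes were missing from as many. In the libraries where such a gene was over the floor, its median count was 133 for all genes at 1 to 2 CPM and 157 for *Ifit3b*, and some libraries held few counts, such as 9 of *Ifit3b* and 5 of *Irf7*.

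**Figure D1:**
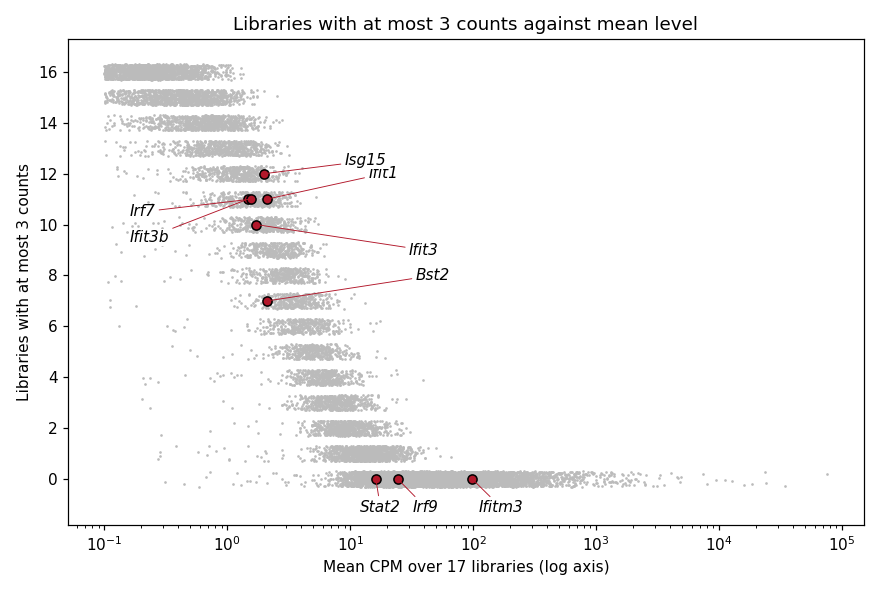
Mean CPM over 17 libraries on a log axis (x) against the number of libraries in which a gene had at most 3 counts (y, points spread within each whole number), for genes of at least 0.1 CPM in grey and the 9 members in red. *Ifitm3*, *Irf9* and *Stat2* sit at 0 libraries and the other 6 members lie inside the grey cloud, between 7 and 12 libraries.

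The promoters of most members carry letters of the element that the complex of STAT2 and IRF9 is known to bind. The core letters, GAAA, any 2 bases and GAAA again, searched on both strands from 250 bases before to 50 after each RefSeq start on GRCm38.p6 with overlaps allowed, were found for 7 of 9 members and in 1131 of 32851 promoters of all genes (3.44%). *Irf7* and *Irf9* held no match in this window, and both matches of *Ifitm3* lay after its start. A match is a string of letters, and no binding was measured. Windows around the matches are shown for *Ifit1*, *Ifit3*, *Ifit3b* and *Isg15*, whose promoters show how far the copies are alike. Capitals mark the matches, and each is written 5′ to 3′ on the strand of its gene, at chr19:34640765-34640833 (plus) for *Ifit1*, chr19:34583353-34583436 (plus) for *Ifit3*, chr19:34607749-34607832 (plus) for *Ifit3b* and chr4:156200855-156200916 (minus) for *Isg15*.
Ifit1: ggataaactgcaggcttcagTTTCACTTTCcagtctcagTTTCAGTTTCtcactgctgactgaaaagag
Ifit3: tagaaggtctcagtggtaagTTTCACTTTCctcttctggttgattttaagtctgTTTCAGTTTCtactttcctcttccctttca
Ifit3b: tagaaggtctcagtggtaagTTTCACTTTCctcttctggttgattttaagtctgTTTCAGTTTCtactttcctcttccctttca
Isg15: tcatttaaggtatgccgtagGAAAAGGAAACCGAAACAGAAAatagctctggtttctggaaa
The windows of *Ifit3* and *Ifit3b* have the same 84 letters, and of the 260 bases that aligned between their 300-base promoters 259 were identical (99.6%). *Ifit1* holds the same 2 matches closer together, and *Isg15* holds 3 that overlap, in the other orientation.

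The IFIT proteins bind foreign RNA and hold back its translation. Their genes lie in a row on chromosome 19 of GRCm38, with *Ifit3* at chr19:34583531-34588731, *Ifit3b*, its near copy, at chr19:34607970-34613401 and *Ifit1* at chr19:34640871-34650009, all on the plus strand. *Ifit3b* was present in each FGF2 library, at 4.73, 8.16, 3.61 and 7.36 CPM in replicates 1 to 4, which are 256, 143, 171 and 304 counts. It had no count in any of the 4 PBS, 3 DMSO and 3 SAG libraries. The 3 FGF10 libraries held 0, 9 and 37 counts, or 0, 0.185 and 0.966 CPM. All 4 FGF2 libraries therefore lay above each of the other 13.

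With FGF2, *Ifit3b* averaged 5.97 ± 2.15 CPM (SD, n = 4), at least 73.3-fold higher than in PBS when the PBS libraries are set to the floor of 3 counts each. Leaving out each FGF2 library in turn gave bounds of 64.3- to 83.0-fold. It was not called by the edgeR quasi-likelihood test (Benjamini-Hochberg adjusted p = 1.00 over 12744 genes), and DESeq2 called it (adjusted p = 0.00435). The edgeR test called 0% of the 12744 genes in this comparison, 223 had an unadjusted p under 0.05, and DESeq2 called 9. A pattern of more than 3 counts in each FGF2 library and 0 in each PBS library was met by 8 of 20121 genes with a count (0.0398%). Besides *Ifit3b* these were *Crtap*, *Lgals3bp*, *Fam83h*, *Exd1*, *Rapgef4*, *Pcdhb6* and *Kcnf1*, named after their values were seen. The pattern was set with the values of *Ifit3b* known, so this share is no test of that gene. In this comparison *Ifit3b* passed the filter on low counts only through its FGF2 libraries, so it had to differ. *Lgals3bp*, a secreted glycoprotein gene that interferon also induces, was over the floor in 6 other libraries, *Ifit3b* in 2 and *Kcnf1* in 1.

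Against FGF10, the same 4 libraries gave *Ifit3b* a log2(fold-change) of 3.95 with its standard error (SE) at 2.51, and edgeR's adjusted p was 1.00 and DESeq2's 0.800. Without FGF10 replicate 3 the value was 5.93. The groups did not overlap, as for 4.94% of the 13493 genes tested between FGF2 and FGF10, and the edgeR test called 0%, with 324 genes at an unadjusted p under 0.05 and 28 called by DESeq2.

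*Ifit1*, which binds the capped ends of foreign RNA, was found in 3 of 4 FGF2 libraries, at 4.21, 0, 16.8 and 7.02 CPM in replicates 1 to 4. It had no count in any PBS library. Single libraries of 3 other groups held it, with 2.95 CPM in DMSO replicate 3, 0.179 in SAG replicate 2 and 4.46 in FGF10 replicate 3. FGF2 replicate 2, the shallowest library, was at 0, so the FGF2 and PBS groups overlapped. The FGF2 mean of 7.02 ± 7.16 CPM (SD, n = 4) was at least 86.3-fold higher than the PBS floor, and at least 46.0-fold without FGF2 replicate 3. The gene did not pass the filter on low counts against PBS and was not tested there. Against FGF10 its log2(fold-change) was 2.23 (SE 2.71), and edgeR did not call it (adjusted p = 1.00).

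*Ifit3*, the near copy, shared FGF2 replicates 2 and 3 and FGF10 replicate 3 with *Ifit3b* and was also found in libraries without it. It was highest in PBS replicate 4, at 9.49 CPM, with no count in the other 3 PBS libraries. FGF2 replicates 1 to 4 held 0, 3.83, 6.72 and 0 CPM, SAG replicates 0, 4.82 and 0.418, DMSO replicates 1.30, 0 and 0, and FGF10 replicates 0, 0 and 2.74. All 5 groups overlapped, and SAG against DMSO gave a log2(fold-change) of 2.03 (SE 3.41, edgeR adjusted p = 1.00). Reads could move from one copy to the other in counting: of the 426 stretches of 75 bases in the last 500 bases of the *Ifit3* transcript, 42 (9.86%) also stand in *Ifit3b* transcripts, while 0 of 426 from the end of *Ifit3b* stand in *Ifit3*.

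*Isg15* makes a ubiquitin-like protein that is joined to other proteins in infected cells, and lies at chr4:156199424-156200818 on the minus strand. It was found in 5 libraries, at 2.75 and 15.8 CPM in FGF2 replicates 1 and 3, 9.94 in SAG replicate 3, 2.65 in PBS replicate 4 and 2.66 in FGF10 replicate 2. The FGF2 and PBS groups overlapped, since 2 of 4 FGF2 libraries were at 0. It was tested only for FGF2 against FGF10, with a log2(fold-change) of 2.38 (SE 3.24, edgeR adjusted p = 1.00).

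Counted together, *Ifit1*, *Ifit3*, *Ifit3b* and *Isg15* were over the floor in 11 of 16 values with FGF2, 2 of 16 with PBS, 2 of 12 with DMSO, 4 of 12 with SAG and 5 of 12 with FGF10. Their summed level was 11.7 to 43.0 CPM in FGF2 libraries, 12.1 CPM in PBS replicate 4 and 0 in the other 3 PBS libraries. *Ifit3b* alone gave 4 of the 11 FGF2 values, and values of different genes in one library are not replicates. *Bst2* and *Irf7*, also low in level, were left out of this count. The 4 genes come from members chosen with these values known. No share over other genes of these levels was taken by group, so the counts describe these genes and support no difference between groups. *Bst2* averaged 0.559 CPM with FGF2 and 1.53 with PBS, over the floor in 2 of 4 libraries of each. *Irf7* averaged 0.991 CPM with FGF2 and 0.0255 with PBS, over the floor in 2 of 4 and 1 of 4. FGF2 replicate 3 was the one library of 17 with all 9 members over the floor. The microglia or macrophage markers summed to 12.7 to 34.5 CPM with FGF2 and 5.07 to 27.7 CPM with PBS, and their part in these values was not tested.

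**Figure D2:**
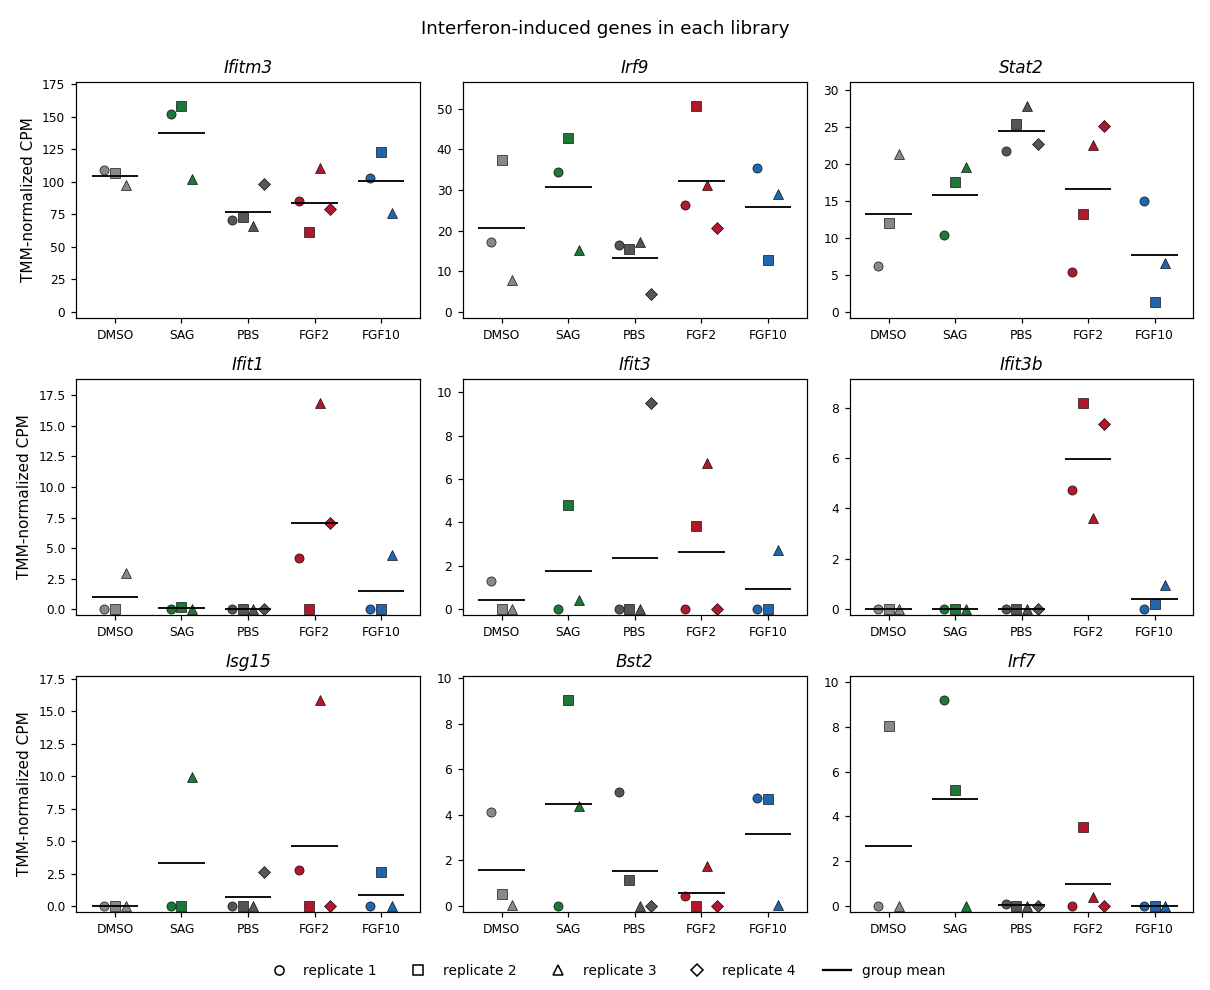
TMM-normalized CPM (y) of the 9 members in each library of the 5 groups (x), 1 panel per gene with its own scale starting at about 0, points shaped by replicate number and a black line at the group mean. *Ifit3b* is above 3 CPM in each FGF2 library and under 1 CPM in all others, whereas *Ifit3*, *Isg15*, *Bst2* and *Irf7* scatter between 0 and 16 CPM within groups.

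*Bst2* encodes tetherin, a membrane protein that holds budding virus on the cell, at chr8:71534255-71537456 on the minus strand. In DMSO replicates 1 to 3 it was at 4.14, 0.526 and 0.0264 CPM and in SAG replicates at 0, 9.02 and 4.38. PBS replicates 1 to 4 were at 5.0, 1.13, 0 and 0 CPM, FGF2 replicates at 0.462, 0, 1.78 and 0, and FGF10 replicates at 4.74, 4.696 and 0.0261. Each group held a library at or under 3 counts, all groups overlapped, and the standard errors of its log2(fold-change) were 2.71 to 2.97 in the 5 comparisons.

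*Ifitm3*, a membrane protein that stops viruses at the endosome, was the most abundant member and ranked 1600 of the 22606 genes with counts. It lies at chr7:141009586-141010770 on the minus strand. Levels were 109, 106 and 97.7 CPM in DMSO, 152, 158 and 102 in SAG, 70.4, 73.1, 65.7 and 98.3 in PBS, 85.5, 61.1, 110 and 79.3 in FGF2, and 103, 123 and 76.1 in FGF10. SAG had the highest group mean, 137 ± 30.6 CPM (SD, n = 3), against 104 ± 5.85 in DMSO (n = 3), but SAG replicate 3 lay among the DMSO libraries. The log2(fold-change) of SAG against DMSO was 0.42 (SE 0.26, edgeR adjusted p = 1.00), and that of FGF10 against PBS was 0.39 (SE 0.28). With FGF2 it was 0.12 (SE 0.27), and it turned to -0.03 without FGF2 replicate 3. In the order of group means, SAG, DMSO, FGF10, FGF2 and PBS, each group overlapped its neighbour.

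Of the 3 transcription factors, *Irf9* binds DNA in the interferon complex, *Stat2* brings its activation domain, and *Irf7*, itself induced, drives a later wave of interferon genes. *Irf9* (chr14:55603571-55610030, plus strand) was at 26.2, 50.5, 31.2 and 20.7 CPM in FGF2 replicates 1 to 4 and at 16.5, 15.6, 17.1 and 4.35 in PBS replicates. The groups did not overlap. *Irf9* shares exon sequence with *Rnf31* on the same strand, so its count is uncertain. Means were 32.2 ± 13.0 CPM with FGF2 (SD, n = 4) and 13.4 ± 6.06 with PBS (n = 4), and the log2(fold-change) of 1.26 (SE 0.59) was not called (edgeR adjusted p = 1.00). CPM of 2.44% of the 12744 genes tested did not overlap between FGF2 and PBS, and among the members tested this held for *Ifit3b* and *Irf9*, 2 of 5.

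*Irf9* in the remaining groups overlapped both FGF2 and PBS levels. DMSO replicates 1 to 3 held 17.1, 37.2 and 7.86 CPM, SAG replicates 34.5, 42.7 and 15.2, and FGF10 replicates 35.3, 12.8 and 29.1. SAG against DMSO gave a log2(fold-change) of 0.59 (SE 0.76), and FGF10 against PBS gave 0.95 (SE 0.73). Each overlapped its control.

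*Stat2* (chr10:128270559-128292849, plus strand) had its narrowest range in PBS. PBS replicates 1 to 4 were at 21.8, 25.4, 27.8 and 22.8 CPM, and FGF10 replicates at 15.03, 1.40 and 6.63, below each PBS library. The log2(fold-change) of FGF10 against PBS was -1.67 (SE 0.87, edgeR adjusted p = 1.00), and -1.19 without FGF10 replicate 2, and -2.63 without FGF10 replicate 1. *Stat2* was the only one of 4 members tested whose FGF10 and PBS libraries did not overlap, beside 4.8% of the 13309 genes tested, and the edgeR test called 0% of them, with 305 at an unadjusted p under 0.05 and 37 called by DESeq2.

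FGF2 replicates 1 to 4 held *Stat2* at 5.36, 13.2, 22.6 and 25.1 CPM, with replicates 1 and 2 below the PBS range and replicates 3 and 4 inside it. DMSO replicates were at 6.27, 12.0 and 21.3 CPM and SAG replicates at 10.4, 17.6 and 19.6, which overlapped. All 4 PBS libraries were above the 3 DMSO libraries, with a log2(fold-change) of 0.91 (SE 0.72, edgeR adjusted p = 1.00) that ran from 0.57 to 1.43 when a DMSO library was left out. PBS and DMSO libraries did not overlap for 6.41% of 13271 genes, and edgeR called 0% of those, with 580 at an unadjusted p under 0.05 and 126 called by DESeq2.

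*Irf7* (chr7:141262706-141266481, minus strand) was present in DMSO replicate 2 at 8.05 CPM, SAG replicates 1 and 2 at 9.17 and 5.17, and FGF2 replicates 2 and 3 at 3.54 and 0.423. PBS replicate 1 held 5 counts, or 0.102 CPM, and no FGF10 library had a count. Its exons overlap *Phrf1* on the other strand, and the strand setting of the counting is not given in the sources used here. SAG and DMSO overlapped, and the log2(fold-change) of 0.85 had a standard error of 3.18.

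Set beside all genes, no comparison called a member in edgeR, and DESeq2 called 1, *Ifit3b* with FGF2 against PBS. Between SAG and DMSO all 6 members tested had positive values with a median log2(fold-change) of 0.72, against -0.02 over all 12538 genes tested, and none was free of overlap, as 14.1% of the genes were. The test called 0.0638% of those genes, 8 in all. The standard error was larger than the value for *Ifit3*, *Bst2*, *Irf7*, *Irf9* and *Stat2*. *Ifit3*, *Irf7* and *Stat2* each turned negative when 1 particular library was left out. Of the members not tested there, *Ifit1* averaged 0.0595 CPM with SAG and 0.985 with DMSO. *Isg15* averaged 3.31 CPM with SAG and 0 with DMSO, and *Ifit3b* had no count in either group. For FGF2 against PBS 3 of 5 tested were positive (median 0.12), for FGF10 against PBS 3 of 4 (median 0.67), for FGF2 against FGF10 6 of 8 (median 1.32) and for PBS against DMSO 1 of 4 (median -0.22). The members not tested, 1 to 5 per comparison, failed the filter on low counts, and a member that passed only through its high group, such as *Ifit3b* with FGF2, had to differ. FGF2 and FGF10 were set against the same 4 PBS libraries.

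Single members were also compared by a two-sided exact permutation test of CPM, 43 tests in all over members and comparisons. *Ifit3b* and *Irf9* with FGF2 against PBS gave p = 0.0286, the smallest value that exact permutation of 4 against 4 can give. *Stat2* gave p = 0.0571 with FGF10 against PBS and with PBS against DMSO, and so did *Ifit3b* with FGF2 against FGF10, which is the smallest exact permutation value for 3 against 4. With 3 against 3 the smallest is 0.1, so SAG against DMSO could not pass 0.05. None of these was adjusted for the 43 tests, and groups without overlap always give the smallest value. The members were chosen with group differences of these same libraries known. These p-values therefore only count arrangements of the libraries with at least as large a difference of means. They do not measure how far the libraries lie apart and support no statement about a member. When libraries were exchanged only within the sets of replicates 1 and 2 and of replicates 3 and 4, an alternative added after the data were seen, the exact permutation p of *Ifit3b* and *Irf9* was 0.0556, the smallest that this arrangement allows.

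**Figure D3:**
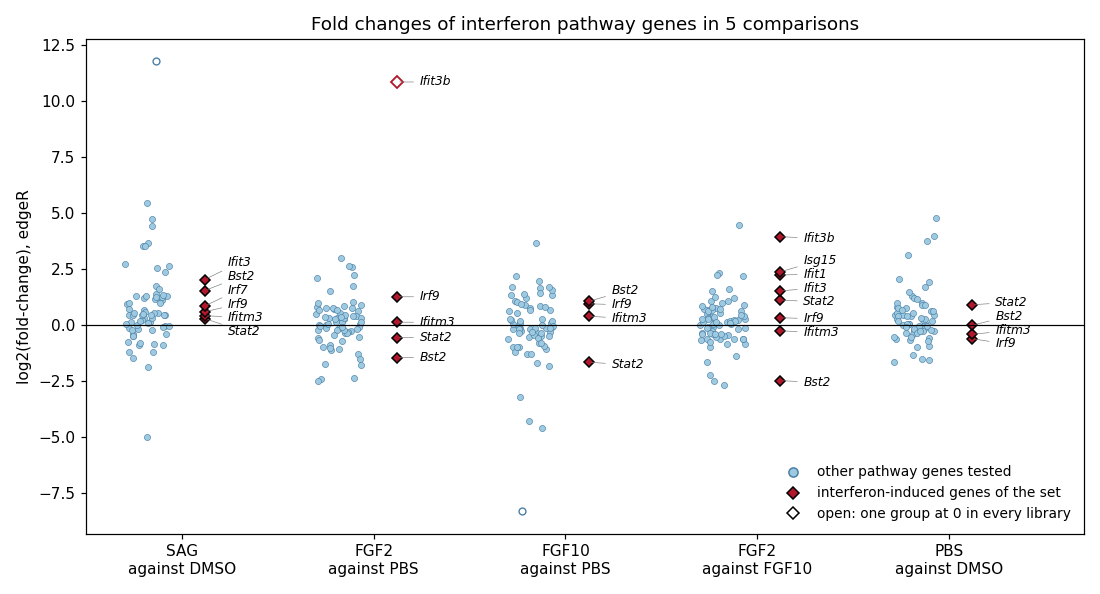
edgeR log2(fold-change) (y) in the 5 comparisons (x) of the members tested, as red diamonds with names, and of other interferon pathway genes tested, as blue circles. Open symbols mark genes with no count in any library of one group, whose position is set by the prior count of the fit and is no estimate of a fold. Apart from *Ifit3b*, the members lie within the spread of the other pathway genes.

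The other genes of the pathway were taken from 8 lists of 165 genes written from general knowledge. No gene of these lists was called by edgeR in any of the 5 comparisons. Of 21 interferon genes 20 had no count in any library, and *Ifnk*, an interferon of skin, was over the floor in 1, DMSO replicate 1, at 0.866 CPM. Of the receptors and their kinases, *Jak1* averaged 104 CPM and *Ifnar1* 29.2 CPM over the 17 libraries, 6 of 9 genes of the list were over the floor in all, and *Tyk2* was over it in 16. Among the other factors *Irf3* and *Irf2* averaged 42.6 and 37.7 CPM, and among sensors and adaptors the adaptor *Traf3* and the kinase *Tbk1* averaged 23.4 and 22.8 CPM. Genes that limit the response included *Rnaseh2c* and *Rnaseh2b*, subunits of an enzyme that clears RNA from DNA, at 128 and 26.7 CPM. Of 71 other induced effectors 26 were never over the floor, and the most abundant were *Shisa5* and *Znfx1* at 36.4 and 29.4 CPM. The guanylate-binding protein *Gbp7* averaged 22.4 CPM and the GTPase *Irgm2* 3.26 CPM.

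Between SAG and DMSO 48 of 69 pathway genes tested had positive values and 21 negative ones, with a median of 0.45, and 8 did not overlap, beside 14.1% of all genes tested. The corresponding counts were 39 and 31 of 70 (median 0.13) for FGF2 against PBS, 32 and 38 of 70 (median -0.11) for FGF10 against PBS, 43 and 32 of 75 (median 0.13) for FGF2 against FGF10, and 39 and 26 of 65 (median 0.24) for PBS against DMSO. Groups did not overlap for 1 pathway gene in FGF2 against PBS (2.44% of all genes), 5 in FGF10 against PBS (4.8%), 1 in FGF2 against FGF10 (4.94%) and 3 in PBS against DMSO (6.41%). None of these genes passed the edgeR test, an unadjusted p under 0.05 was reached by 3 for SAG against DMSO, where 714 of all 12538 genes reached it, 3 for FGF10 against PBS, 2 for PBS against DMSO and 0 in the other comparisons, and DESeq2 called 2, *H2-K1* and *Ifi27l2a*, both for SAG against DMSO. The median over all genes tested was between -0.02 and 0.02.

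Class I antigen presentation held the pathway gene nearest to the threshold. *H2-K1*, a heavy chain that shows peptides to T cells, was at 125, 174 and 243 CPM in SAG replicates 1 to 3 and at 79.1, 68.7 and 72.4 in DMSO replicates. The groups did not overlap, and the log2(fold-change) was 1.32 (SE 0.28, edgeR adjusted p = 0.247). It was called in 3 of 6 other settings, with adjusted p = 0.00764 without a filter on low counts, 0.0243 when genes needed a mean of 10 counts and 2.02e-04 in DESeq2, while leaving out each library gave adjusted p of 0.122 to 0.782. Of the 10 genes of this list tested between SAG and DMSO, 5 had positive and 5 negative values, with a median of 0.20. SAG and DMSO did not overlap for 4 of the 10, *H2-K1* among them, beside 14.1% of all genes tested. The direction of the others without overlap is not given here. Class I genes are close copies of each other, so their counts are uncertain. *B2m*, the partner of *H2-K1*, averaged 127 CPM over the 17 libraries and overlapped between SAG and DMSO, with a log2(fold-change) of 0.43 (SE 0.30). With FGF2 *H2-K1* was at 106, 54.2, 128 and 182 CPM and with PBS at 68.3, 73.4, 69.6 and 84.6, which overlapped.

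Other pathway genes without overlap were picked after their values were seen. Those named for SAG against DMSO, like *H2-K1*, were higher with SAG. Others of the 8 without overlap there are not named, and their direction is not given here. The genes named therefore give no direction for the pathway. *Ifi27l2a* is a small interferon-induced membrane protein gene. It held 540, 374 and 271 counts in SAG replicates 1 to 3 and 0 in each DMSO library, an average of 9.91 ± 5.04 CPM (SD, n = 3) that was at least 144-fold above the DMSO floor. Leaving out each SAG library gave bounds of 104- to 175-fold. edgeR did not call it (adjusted p = 0.510) and DESeq2 did (2.03e-04), and it was also at 2.23 CPM in PBS replicate 2 and 5.11 CPM in FGF2 replicate 4. *Ifi27l2a* passed the filter on low counts only through its SAG libraries and had to differ, so its bound and p-values are descriptions. *Ifnar1* was at 47.5, 50.6 and 35.01 CPM with SAG and 12.8, 19.0 and 23.8 with DMSO, a log2(fold-change) of 1.28 (SE 0.56, edgeR adjusted p = 0.826). *Jak1* averaged 117 ± 11.8 CPM with FGF10 (SD, n = 3) and 81.1 ± 4.36 with PBS (n = 4), with edgeR's adjusted p at 1.00. It had the one positive value among the 8 receptor and kinase genes tested there, and the other 7 were negative (median -0.30). Microglia or macrophage markers summed to 2.703 to 81.4 CPM with SAG and 12.7 to 23.2 with DMSO, and their part was not tested.

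**Figure D4:**
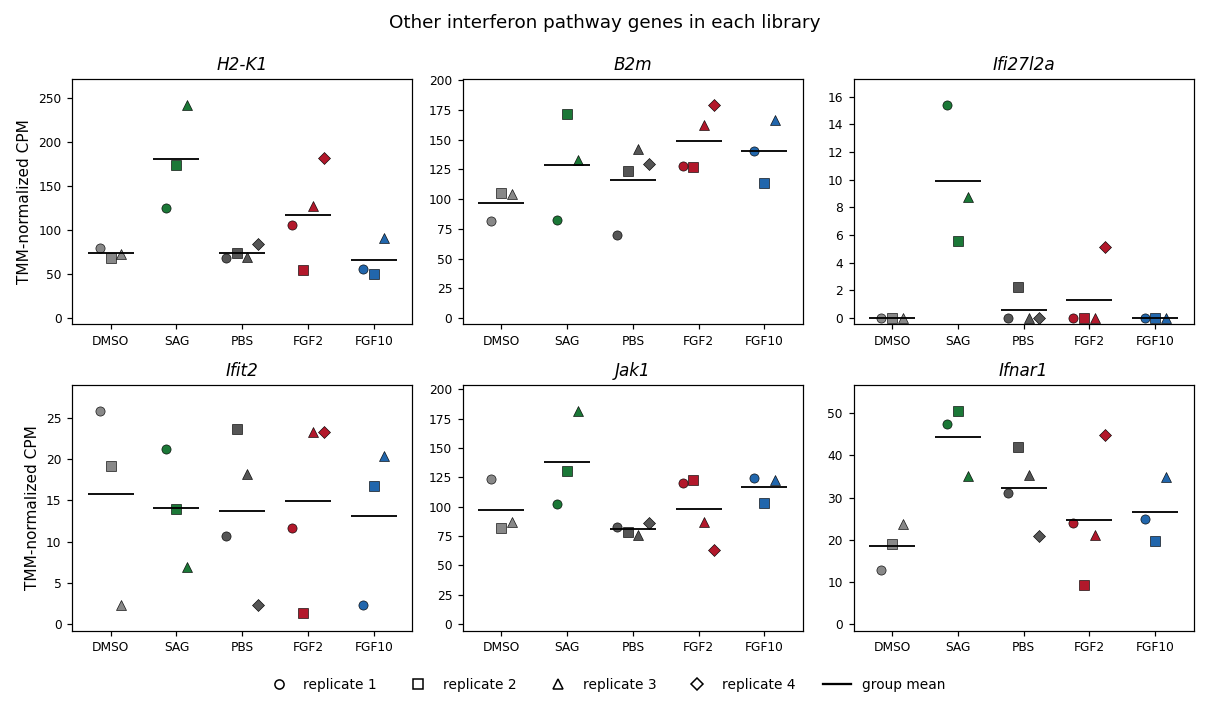
TMM-normalized CPM (y) of 6 other pathway genes in each library of the 5 groups (x), with points shaped by replicate number and a black line at the group mean. *H2-K1* and *Ifnar1* in the 3 SAG libraries lie above the 3 DMSO libraries, and *Ifi27l2a* is at 0 in most libraries outside SAG.

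Members were also set against each other across libraries. Over the 17 libraries the Pearson correlation of log2(CPM + 1) between pairs of members ran from -0.39 to 0.63 with a median of 0.08 over 36 pairs, and the highest were *Ifit3b* with *Ifit1* (0.63) and *Irf9* with *Irf7* (0.61). The libraries share group, depth and zeros, so these values are descriptions. Of 17290 genes compared with the mean of the members' standardized values, the 10 most alike had r of 0.79 to 0.86. They included *9630028I04Rik*, *Gm49376*, *Gm4951*, *Gm49270*, *Gm10382*, *ENSMUSG00000120886*, *4930524O07Rik*, *4833422C13Rik* and *Synj2*. Of the 10, 0 stand in the pathway lists, but the lists are not complete, so interferon-induced genes may be among the 10. The Spearman correlation of the 10 genes with the same mean was 0.21 to 0.65. Without SAG replicate 2 none of these 10 stayed among the 10 most alike, and without FGF2 replicate 3 only 1 did.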

How the data were processed

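3′-end RNA-seq libraries of 17 astrocyte cultures were analyzed. The authors deposited raw read counts by gene for each library, which are whole numbers without normalization. The authors removed BC1 transcripts and chose PCR cycles per library. The submitters' processing notes name STAR, DESeq2 and GRCm38. Annotation release, strand setting and use of molecular identifiers are not given in the sources used here, so PCR copies may be counted. The columns named Shh were taken as SAG, the only hedgehog treatment in the labels. Of 56805 rows, 114 spike-ins (at most 86 counts in a library) were left out, and 77 symbols on more than 1 row, none of them used here, were kept apart.

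Groups and replicate numbers came from the labels, and doses and times from labels and methods. Each of 5 comparisons was fitted on its own libraries in R 4.3.3 with edgeR 4.0.16 (filterByExpr, minimum count 10, minimum total 15, TMM, quasi-likelihood test, no covariates) and limma 3.58.1, with Benjamini-Hochberg adjustment over all genes tested and a call at an adjusted p under 0.05. Standard errors came from the F statistic. The biological coefficient of variation was 107% to 117%, which with total counts of 17481727 to 68342287 (median 37173676) set the precision. Exact permutation tests used SciPy 1.17.1 in Python 3.11.15. A bound on a fold sets a group without counts to 3 counts per library and covers counting error only. Gene positions are from GENCODE M21 and promoter sequences from RefSeq, with 9 of 9 members matched.

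The members and all gene lists were chosen with earlier results of these data known. The genes named are the 9 members, the 2 pathway genes per list with the highest mean, any pathway gene called, and the 10 genes most like the members among those with a mean of at least 10 counts. Alternatives were DESeq2 size factors, other filters on low counts, all 5 groups in one fit, DESeq2 1.42.0, the replicate number as a block, replicate sets (1 and 2, or 3 and 4) and leaving out each library.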

Additional observations from a re-analysis of the deposited data

Results flagged for a closer look

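Of 16 groups of 4 libraries that could be tested for a member, 5 held a library far from the others, meaning that its gap to the nearest library exceeded 0.829 of the range of the group. Chance flags about 1 in 20 groups, and genes with no count in most libraries meet the criterion whenever a single library has one. *Ifit3* was at 9.49 CPM in PBS replicate 4 and at 0 in the other PBS libraries. *Isg15* was at 2.65 CPM in that same library and at 0 in the others. *Irf7* was at 0.102 CPM (5 counts) in PBS replicate 1 and at 0 in the others, and at 3.54 CPM in FGF2 replicate 2 with 0, 0 and 0.423 CPM in the other FGF2 libraries. *Irf9* was low in PBS replicate 4, at 4.35 CPM beside 15.6 to 17.1 CPM in the other PBS libraries, and without that library its log2(fold-change) with FGF2 was 0.97 in place of 1.26. PBS replicate 4 stood out for 3 of the 5 values.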

How the results depend on the processing

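The 27 log2(fold-change) values of members gave 209 values under settings other than leaving out a library, of which 201 kept their direction and stayed on their side of the threshold, 7 turned direction and 1, *Ifit3b* with FGF2 against PBS in DESeq2, became a call (adjusted p = 0.00435, range over all settings 0.00435 to 1.00). With each library left out, 173 of 184 values kept their direction, 11 reversed and 0 were called. The cause of each change was not tested. DESeq2 called 367 genes for SAG against DMSO (edgeR 8), and 126 for PBS against DMSO, 37 for FGF10 against PBS, 28 for FGF2 against FGF10 and 9 for FGF2 against PBS, where edgeR called 0. Without a filter edgeR called 76 for SAG against DMSO, 2 for FGF2 against FGF10 and 36 for PBS against DMSO. A filter on a mean of 10 counts gave 42 for SAG against DMSO and 4 for PBS against DMSO, and all 5 groups in one fit gave 4 and 1. For FGF2 against FGF10, replicates 3 and 4 only gave 36. SAG against DMSO called 1 to 7 genes with a library left out, 1 without DMSO replicate 1, 2 without SAG replicate 2 or 3 and 5 without DMSO replicate 2 or 3.

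Reversed values were 1.47 for *Bst2* with FGF2 against PBS with the replicate set as a term, -0.12 for *Ifitm3* with FGF10 against PBS in replicates 3 and 4 only, 4.92 for *Bst2*, 0.32 for *Ifitm3* and -0.16 for *Irf9* with FGF2 against FGF10 in those replicates, and 4.13e-04 and 4.07e-04 for *Bst2* with PBS against DMSO with DESeq2 size factors and in DESeq2. Leaving out a library gave ranges that cross 0 for *Ifit3* (-1.002 to 9.26, negative without SAG replicate 2), *Stat2* (-0.054 to 0.81, DMSO replicate 1) and *Irf7* (-0.026 to 10.7, SAG replicate 1) in SAG against DMSO, for *Bst2* (-3.28 to 0.56, PBS replicate 1) and *Ifitm3* (-0.033 to 0.27, FGF2 replicate 3) in FGF2 against PBS, for *Irf9* (-0.0018 to 0.62, FGF10 replicate 2) in FGF2 against FGF10, and for *Bst2* (-2.03 to 2.46, DMSO replicate 1 and PBS replicates 2, 3 and 4) and *Irf9* (-1.01 to 0.12, DMSO replicate 2) in PBS against DMSO.

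Correlations of deviations between samples with the same replicate number were -0.02 to 0.13, and no comparison had every pair over 0.1, so the numbers were not taken as pairs. Between FGF2 and PBS, libraries of the same set of replicates (1 and 2, or 3 and 4) correlated at 0.0605 to 0.116 and libraries of different sets at -0.132 to -0.048, and with the set as a term *Ifit3b* and *Irf9* were not called (edgeR adjusted p = 1.00 for both). With the replicate block SAG against DMSO called 12 genes and each other comparison 0 and no member was called. *Ifit3b* was at 0 in both PBS libraries of each replicate set. Of the 9 members, 6 had libraries without a count, which limits how far they can be compared library by library.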

Other observations

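*Ifit2*, another member of the IFIT family that stands in the list of other induced effectors and was picked after its values were seen, had counts in all 17 libraries, unlike *Ifit1*, *Ifit3* and *Ifit3b*. It was at 11.7, 1.31, 23.2 and 23.3 CPM in FGF2 replicates 1 to 4 and at 10.6, 23.6, 18.1 and 2.27 CPM in PBS replicates, which overlapped. FGF2 replicate 2, its lowest library, was the one with the highest *Ifit3b*, 8.16 CPM.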
